A study of Sinohyriopsis cumingii with 10 samples.

Results

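The 100 contigs whose abundance moved least over the formation of the pearl sac were taken from 10 RNA sequencing libraries of the freshwater pearl mussel Sinohyriopsis cumingii. A contig is an assembled piece of a transcript. Abundance was expressed as CPM, the reads of a contig relative to all reads of its library, and the contigs considered were the 4088 with a mean from 20 to under 1000 CPM, out of 211508 that could be read in all files. The 100 were chosen by the lowest standard deviation (SD) of log2(CPM + 1) over all 10 libraries, so their steadiness with total counts is a description of the choice and not a result. They made up 2.45% of the contigs considered, and all 100 also passed the filter on low counts that was used to set library scalings. With TMM scaling, which sets libraries level on the bulk of their contigs in place of their totals, only 3 of the 100 were among the 100 steadiest contigs.

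In pearl culture a graft of mantle tissue grows into an epithelial pouch, the pearl sac, which secretes nacre. Its formation starts from a wound, so blood cells gather, outer mantle cells spread and divide, and secretion begins late. Transcripts that stay level through such a change are what reference genes in expression studies are drawn from, and proteins of translation, the cytoskeleton and basic metabolism are the usual candidates. Sequencing measures shares of the RNA, so whether a transcript is level depends on what the libraries are made equal to. In a mixed tissue, fewer cells of a type and less RNA per cell cannot be told apart.

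The libraries were labelled as pearl sac at 0, 2, 6, 12, 24, 48 and 96 h and at 7, 14 and 30 d after implantation, with 1 library for each time. All came from implanted mussels, 2 years old and of similar size, and no unimplanted group is among them. The sources used here do not say whether a library holds 1 animal or a pool, or what tissue stood for the sac at 0 h, before a sac could have formed. No time had a replicate, so the differences between times below have no test and include differences between animals. Totals ran from 20315910 reads at 96 h to 24069268 at 24 h. The files name contigs by number only: of 24 housekeeping gene symbols looked for, 0 matched, so no contig is given a gene or a role here, no sequence is shown, and the labelled tissue could not be checked against marker genes.

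The contig with the lowest SD was contig156466, of 1888 bases. It stood at 398 CPM (0 h), 402 (2 h), 407 (6 h), 489 (12 h), 375 (24 h), 407 (48 h), 475 (96 h), 617 (7 d), 398 (14 d) and 491 (30 d). Its 0, 2, 6, 48 h and 14 d libraries lay between 398 and 407 CPM, and 7 d was the high one. Its SD was 0.22 and its highest library lay 1.64-fold above its lowest on the log2(CPM + 1) scale, on which all fold ranges below are given. With TMM it stood at 684 CPM at 6 h and 284 at 48 h, a 2.40-fold range, and 7 d was then at 374 CPM, beside 373 CPM at 96 h.

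The second, contig019041 (3042 bases), was a low contig of 28.1 CPM on average. It stood at 22.2 CPM (0 h), 19.6 (2 h), 28.0 (6 h), 31.5 (12 h), 32.9 (24 h), 28.1 (48 h), 27.9 (96 h), 30.6 (7 d), 30.0 (14 d) and 30.0 (30 d). From 6 h on it kept between 27.9 and 32.9 CPM, with the 0 and 2 h libraries below. Under TMM it was highest at 6 h with 47.1 CPM and lowest at 7 d with 18.5 CPM. The third, contig104664 (5407 bases), had the smallest range of the leading 5 with total counts, 1.60-fold, between 19.3 CPM at 6 h and 31.5 CPM at 48 h. Under TMM its range was 2.59-fold, with 42.7 CPM at 0 h and 15.9 CPM at 7 d.

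The fourth and the fifth moved in different libraries. contig006239 (4424 bases) was highest at 6 h, at 59.5 CPM, and lowest at 24 h, at 33.5 CPM, while its other libraries lay between 36.7 and 50.2 CPM. Under TMM its 6 h library stood further out, at 100.2 CPM, against 29.5 CPM at 7 d. contig095495 (3479 bases) was lowest at 6 h, at 341 CPM, and highest at 14 d, at 607 CPM. Its TMM range, 2.16-fold, was the smallest of the leading 5, and 0 h was its highest library under TMM, at 682 CPM.

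At the limit of the choice the values ran on without a step. The last members were contig256645 and contig156350, with SDs of 0.3650 and 0.3652, and the first contigs left out were contig088527 and contig335764, with SDs of 0.3653 and 0.3658. Of these 4, contig256645 had its highest library at 30 d (85.7 CPM) and its lowest at 6 h (36.2 CPM). contig156350 was highest at 0 h (443 CPM) and lowest at 14 d (221 CPM). contig088527 was also highest at 0 h (106.3 CPM), and contig335764 at 7 d (63.8 CPM). Membership near the limit is therefore a matter of the fourth decimal, and contigs just outside moved by as much as those just inside.

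**Figure D1:**
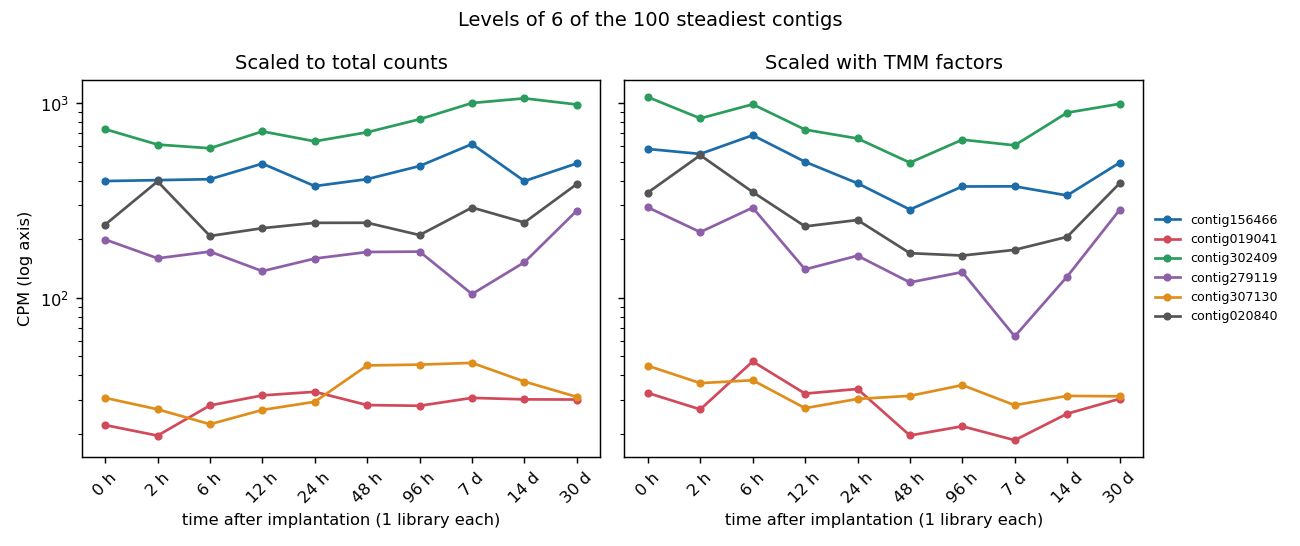
CPM on a log axis of 6 of the 100 contigs at each time after implantation, 1 library each, scaled to total counts on the left and with TMM factors on the right. Lines join the libraries of a contig. With total counts contig156466 stays between 375 and 617 CPM, while under TMM most of the lines are higher from 0 to 6 h than from 48 h to 7 d.

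The members spanned the abundance limits. The most abundant, contig302409 (1196 bases), averaged 787 CPM: it stood at 735 CPM (0 h), 613 (2 h), 587 (6 h), 716 (12 h), 637 (24 h), 709 (48 h), 827 (96 h), 1002 (7 d), 1059 (14 d) and 984 (30 d). Its 3 last libraries were its highest, and the 6 h library its lowest. Under TMM the 0 h library was the highest at 1075 CPM and 48 h the lowest at 495 CPM. The least abundant, contig070337 (2296 bases), averaged 20.1 CPM and ran between 14.1 CPM at 48 h and 28.5 CPM at 30 d. Under TMM it was at 36.2 CPM at 0 h and 9.42 CPM at 7 d, a 3.57-fold range.

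Lengths of the members ran from 100 to 12352 bases. The shortest, contig020840, held 268 CPM on its 100 bases and so had the highest level per length of the members, 2684 RPKM (reads relative to the library total and per kilobase, here from the reads and the contig length). It stood at 396 CPM at 2 h and 384 CPM at 30 d, and between 208 and 291 CPM in the other 8 libraries, so these 2 libraries stood above the rest. Why a contig this short took so many reads was not tested. The longest, contig085701, averaged 86.9 CPM, with 126.0 CPM (12 h), 119.9 CPM (7 d) and 61.5 CPM (96 h). The member with the widest range with total counts, contig279119 (2765 bases), was at 280.4 CPM at 30 d and 104.5 CPM at 7 d, 2.67-fold apart, while its other 8 libraries lay between 137 and 199 CPM. Under TMM it ranged 4.54-fold, with 291 CPM at 0 h and 63.3 CPM at 7 d.

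Over all 100 members the SD with total counts ran from 0.22 to 0.37 with a median of 0.33, against a median of 0.76 over the 4088 contigs considered. The range from lowest to highest library had a median of 1.00 on the log2 scale, which is 1.99-fold, and ran from 1.60-fold to 2.67-fold. It stayed under 2-fold in 52 members. Counting error alone, taken from the reads of each member as if they were independent, would give an SD between 0.01 and 0.07. The members' SDs were 3.87 to 27.5 times that, with a median of 8.41, so even the steadiest contigs differed between libraries by more than counting error. No member had under 242 reads in any library.

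With total counts the members moved in the same direction as all contigs considered at 6 h and 7 d, but by less. At 0, 2 and 48 h they stayed nearer their own means than the contigs considered did. That they moved by less follows from the choice, which took the lowest SDs of these same values. The median member deviated from its own mean by -0.25 at 6 h and by 0.24 at 7 d, and the median of the 4088 contigs by -0.59 and 0.53. At 6 h 20 of the 100 members were above their own mean, beside 21.1% of the contigs considered, and at 7 d 82 were, beside 79.5%. The 6 h library was the lowest for 32 members (28.0% of the contigs considered) and 7 d the highest for 25 (22.1%), so these counts are near those of all contigs. The 24 h library was the lowest for 20 members, beside 13.9%, and the median deviation there was -0.19 for the members and 0.03 for the contigs considered. At 96 h the medians were 0.14 and 0.41. In the remaining libraries the median of the members lay between -0.10 at 2 h and 0.04 at 14 d. The median of the contigs considered was -0.42 (0 h), -0.46 (2 h) and -0.02 (12 h). It was 0.41 (48 h), 0.21 (14 d) and -0.14 (30 d). At 0 h 49 members were above their own mean, beside 28.2% of the contigs considered. At 48 h 53 were, beside 72.8%. The members were most spread out at 2 h, with an interquartile range of 0.47, and at 14 d, with 0.45. They were least so at 7 d, with 0.28.

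The TMM factor was lowest at 6 h, at 0.594, and highest at 7 d, at 1.65, which is 2.78-fold apart, so a contig exactly level with total counts would range 2.78-fold under TMM. Scaled this way, the members ranged 2.47-fold over the libraries in the median, or 1.30 on the log2 scale. The narrowest range among them was 1.60-fold and the widest 4.59-fold. For 84 members the range was wider under TMM than with total counts and for 16 it was narrower, and 15 stayed under 2-fold. The SD under TMM had a median of 0.44, against 0.63 over all contigs considered.

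Under TMM the members took a common course of high, low and part of the way back. The median member was 0.53 above its own mean at 0 h, 0.34 at 2 h and 0.47 at 6 h, near it at 12 h (0.01), and below it by 0.14 at 24 h. The deviation was -0.49 (48 h), -0.21 (96 h), -0.47 (7 d) and -0.20 (14 d), and 0.03 (30 d). At 30 d 92 members were still below their 0 h level, beside 64.0% of the contigs considered. The median change of the members from 0 h was then -0.52. All 100 were above their own mean at 0 h and at 6 h, beside 56.1% and 59.1% of the contigs considered, and none was at 7 d, beside 36.9%. The 0 h library was the highest for 58 members, beside 18.3% of the contigs considered. The lowest library was 7 d for 33 members, beside 10.8%, and 48 h for 32, beside 9.47%. This course runs opposite to the TMM factors, as it must for contigs picked to be level without them.

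**Figure D2:**
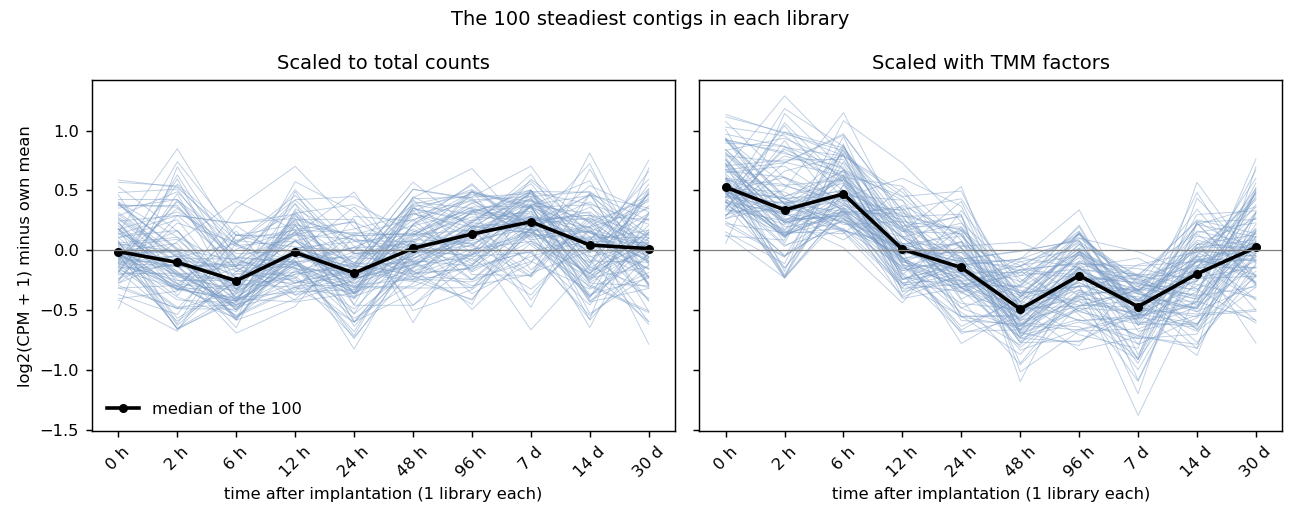
Deviation of each of the 100 contigs from its own mean on the log2(CPM + 1) scale in each library, with total counts on the left and TMM factors on the right. Thin lines are contigs and the black line is their median, which keeps between -0.25 and 0.24 on the left and runs between 0.53 at 0 h and -0.49 at 48 h on the right.

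Set against the single 0 h library, with 1 CPM added to both sides, 8 members lay at least 2-fold away at 1 or more later times with total counts, where 87.6% of the 4088 contigs did. Under TMM the number was 73 of 100, and the share of the 4088 contigs was 78.3%. It was 46 of 100 with TMM factors computed from all contigs, without the filter on low counts. The share of the 4088 contigs was not counted under those factors, so the 46 cannot be set against it. These counts are fixed largely by the choice and nothing is read from them about the members. By direction, 0 members were 2-fold above 0 h at 7 d or at 48 h with total counts, against 49.2% and 44.3% of the contigs considered. Under TMM 49 members were at least 2-fold below 0 h at 7 d, where 24.4% of the contigs considered were, and 51 were at 48 h, where 26.5% were. All 100 members were below their 0 h level at 48 h, 96 h and 7 d under TMM, where 56.7%, 52.1% and 59.9% of the contigs considered were. The median change of the members from 0 h was -1.02 (48 h), -0.75 (96 h) and -0.98 (7 d) on the log2 scale. With total counts 54, 56 and 74 members were above 0 h at these times, beside 74.6%, 77.7% and 80.9% of the contigs considered.

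The same rule applied under TMM gave a largely different set of 100 contigs. Its members' SDs under TMM ran from 0.13 to 0.23, while the limit of the 100 chosen with total counts was 0.37. In the ranking under TMM the 100 contigs chosen with total counts had a median place of 1002 of 4088, with the best at 59 and the last at 2418. The 3 contigs in both sets were contig307130, contig029731 and contig100652. contig307130 (2988 bases) stood at 30.6 CPM (0 h), 26.7 (2 h), 22.4 (6 h), 26.5 (12 h), 29.2 (24 h), 44.9 (48 h), 45.3 (96 h), 46.3 (7 d), 37.1 (14 d) and 30.9 (30 d) with total counts. Its libraries from 48 h to 7 d were the high ones. Under TMM it lay between 27.1 CPM at 12 h and 44.7 CPM at 0 h, and the plateau from 48 h to 7 d was between 28.0 and 35.6 CPM. contig029731 (3639 bases) ranged 1.82-fold with total counts and 1.75-fold under TMM, and contig100652 (3960 bases) 1.92-fold and 1.61-fold.

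The steadiest contigs under TMM were contig176278 (5954 bases) and contig222724 (6850 bases), neither of them among the 100 chosen with total counts. contig176278 stood under TMM at 101.6 CPM (0 h), 92.9 (2 h), 108.2 (6 h), 98.9 (12 h), 86.7 (24 h), 101.4 (48 h), 84.7 (96 h), 84.0 (7 d), 102.9 (14 d) and 92.0 (30 d), a range of 1.28-fold. With total counts it ran between 64.3 CPM at 6 h and 145 CPM at 48 h. contig222724 ranged 1.33-fold under TMM and 3.12-fold with total counts. Of the 100 chosen under TMM, 71 were at least 2-fold from 0 h at some later time with total counts and 0 were under TMM. The shares of the 4088 contigs were 87.6% and 78.3%. Both counts again follow from how these 100 were chosen.

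How many of the 4088 contigs were level was counted under each scaling. These are the SDs from which the members were ranked, and TMM centres the bulk of contigs by construction, so the counts describe the scalings and do not test them. Of the 4088 contigs, 27 (0.660%) had an SD under 0.3 with total counts and 296 (7.24%) under TMM. The median SD of all 4088 was 0.76 with total counts and 0.63 under TMM. The SD was smaller under TMM for 2739 of them (67.0%). With 1 library left out, 27 to 45 contigs were under 0.3 with total counts (45 with 14 d left out, 44 with 24 h, 43 with 6 h, 42 with 2 h and 41 with 7 d), and 255 to 361 under TMM. Raising the TMM factors to powers between total counts (0) and TMM (1) gave 64 contigs under 0.3 at a power of 0.25, 157 at 0.5, 250 at 0.75 and 296 at 1. Beyond TMM the number was 289 at 1.125, 153 at 1.5 and 99 at 1.625. Among the powers tried, the count was highest at TMM itself.

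**Figure D3:**
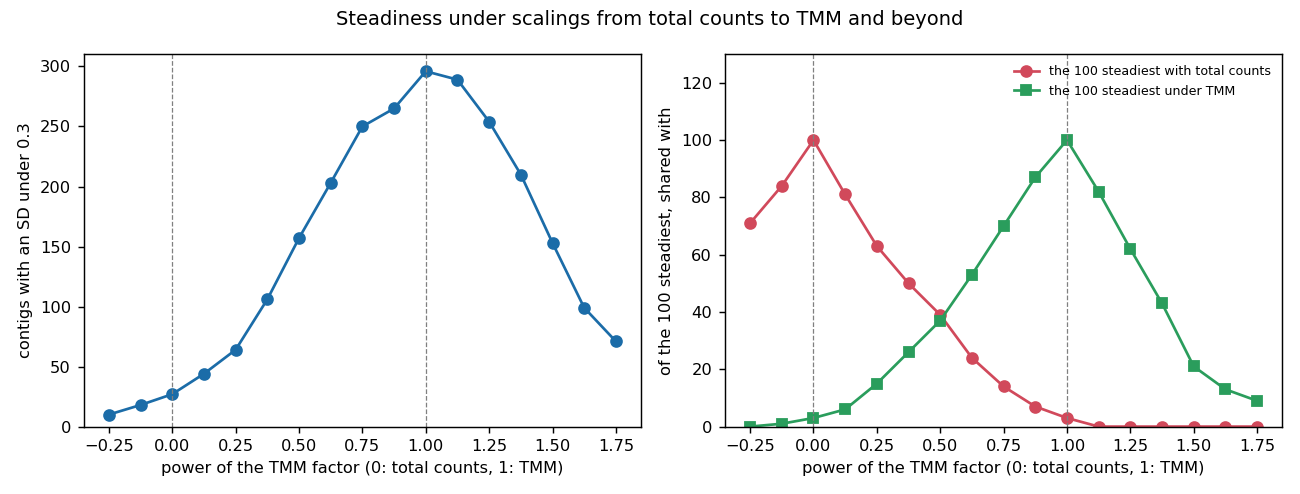
On the left, the number of the 4088 contigs with an SD of log2(CPM + 1) under 0.3, and on the right, how many of the 100 steadiest at each power are shared with the 100 chosen with total counts and with the 100 chosen under TMM, against the power to which TMM factors were raised. The count is 27 at 0 and 296 at 1, and the sets at 0 and 1 share 3 contigs.

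Other scalings lay between these or close to TMM. DESeq2 size factors left 291 contigs under 0.3 and upper quartile scaling 230. TMM factors from all contigs, without the filter on low counts, left 220, and totals without the 141 dominant contigs (mean of 1000 CPM or more) left 160. The TMM factors were computed in part from the contigs that were then scored, so they were also computed from 48808 contigs outside the abundance limits. These factors left 287 of the 4088 under 0.3, although none of the 4088 had entered them, and gave the 100 members a median range of 2.50-fold. TMM presumes that the bulk of contigs is level, and contigs of the same libraries were used throughout. The labels name no added standard RNA, so no measure here gives an amount of RNA per cell.

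Ratios between contigs do not depend on any scaling of libraries. Over all 4950 pairs of the 100 members, the log2 ratio of 2 contigs had a median SD of 0.41 over the libraries. Over the 4950 pairs of the 100 chosen under TMM it was 0.28, and over 20910 pairs of every 20th contig considered it was 1.00. The order of the first 2 values follows from the choice, since each set was picked for low SDs and the limit was 0.23 under TMM and 0.37 with total counts, so it does not bear on which scaling is apt.

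A library that takes no part in the choice gives values that the choice did not use. The rule was therefore applied to 9 libraries, and the 100 contigs were read in the tenth against their mean over the 9. With total counts the median size of the deviation lay between 0.26, when 0 h was left out, and 0.57, when 14 d was left out. With the rule applied and read under TMM, it lay between 0.18 and 0.29. It was larger with total counts in 9 of the 10 libraries, the exception being 0 h with 0.26 against 0.27. The median deviation with its sign was, chosen and read with total counts, 0.03 (0 h), -0.23 (2 h), -0.50 (6 h), 0.09 (12 h), -0.45 (24 h), 0.11 (48 h), 0.23 (96 h), 0.42 (7 d), 0.32 (14 d) and 0.12 (30 d). Chosen and read under TMM it was 0.25 (0 h), -0.24 (2 h), -0.01 (6 h), -0.0035 (12 h), 0.08 (24 h), -0.08 (48 h), 0.12 (96 h), -0.06 (7 d), -0.02 (14 d) and -0.11 (30 d). It was smaller in size under TMM in 8 libraries and larger at 0 and 2 h, with little between the scalings at 2 and 30 d. The sets chosen with total counts were also read under TMM. They then deviated less at 6 h (0.33 against 0.51 in median size) and 7 d (0.36 against 0.46). The same held at 2, 24 and 96 h and 14 d. They deviated more at 0 h (0.65 against 0.26), 48 h (0.46 against 0.28), 12 h and 30 d. The sets chosen under TMM deviated more with total counts than under TMM in each left-out library. Over the 9 libraries the sets chosen with total counts had median SDs of 0.31 to 0.33, and those chosen under TMM 0.19 to 0.21. The TMM factors used for these readings came from all 10 libraries, the library read included. For these reasons the smaller deviations under TMM do not decide which scaling is apt.

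**Figure D4:**
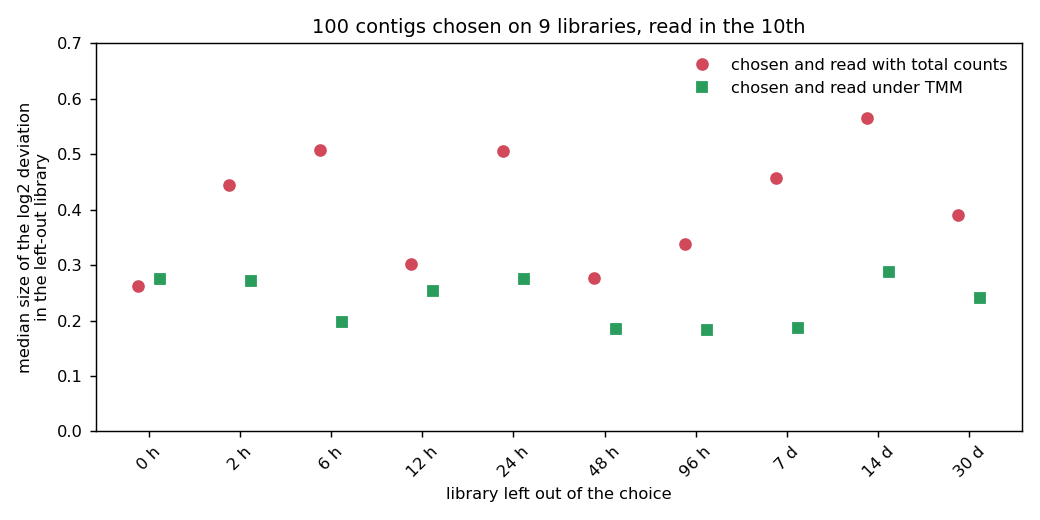
Median size of the log2 deviation of 100 contigs in a library that was left out when they were chosen, for each left-out library. Circles were chosen and read with total counts and run from 0.26 to 0.57, and squares were chosen and read under TMM and run from 0.18 to 0.29.

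The reads were spread differently over the contigs in early and in middle libraries. The 141 dominant contigs held 56.5% of the reads at 0 h, 58.6% (6 h), 35.5% (48 h) and 31.7% (7 d), and 43.8% (30 d). The 4088 contigs of the abundance limits held 33.7% (0 h), 32.7% (6 h), 46.5% (48 h), 47.9% (7 d) and 40.8% (30 d). Against that, the 100 members together held 1.38% of the reads at 0 h, 1.11% (6 h), 1.32% (48 h), 1.47% (7 d) and 1.29% (30 d). Their share stayed between 1.11% and 1.47% over the 10 libraries, while the contigs of like abundance took a larger one from 48 h to 14 d. The 100 contigs chosen under TMM held 0.464% (0 h), 0.361% (6 h), 0.831% (48 h), 0.981% (7 d) and 0.585% (30 d). Between their lowest and highest library this was a 2.72-fold span, close to the 2.78-fold span of the TMM factors. The 4088 contigs spanned 1.47-fold and the 100 members 1.33-fold. The spans of both sets of 100 follow from picking contigs level under TMM or with total counts, so nothing is read from them.

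**Figure D5:**
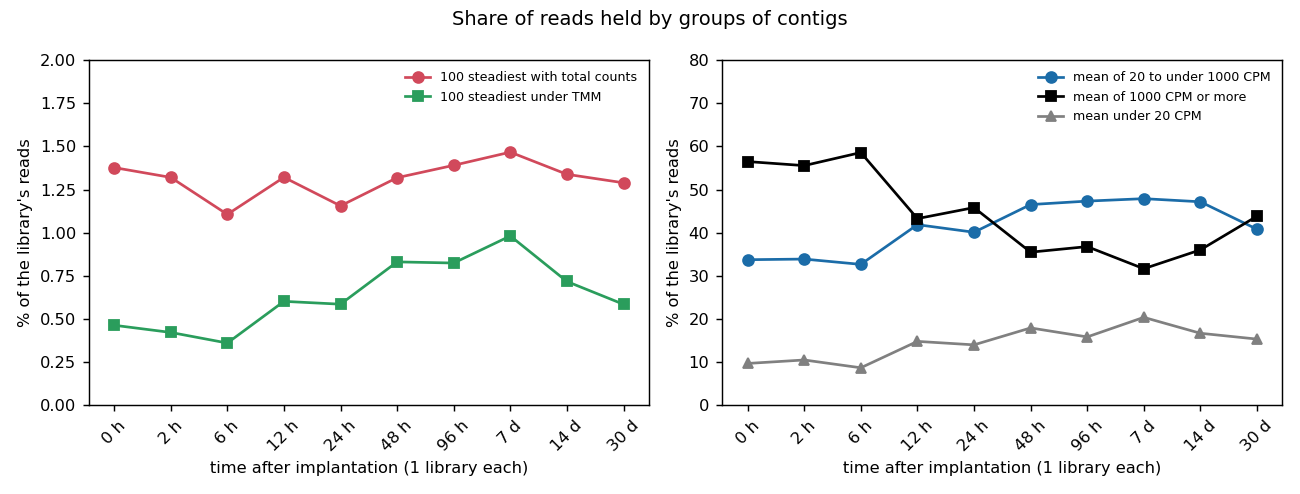
Percent of each library's reads held by the 100 contigs steadiest with total counts and the 100 steadiest under TMM (left), and by all contigs in 3 classes of mean CPM (right). The first set stays between 1.11% and 1.47% while the dominant contigs hold between 31.7% and 58.6%.

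Contig length was not used in the choice. The members had a median length of 3538 bases with quartiles of 2161 and 5170, and the 4088 contigs considered a median of 3118 with quartiles of 1708 and 4926. The 100 chosen under TMM were longer, with a median of 4302 and none under 1248 bases. Abundance is part of the rule, and within its limits 31 members had a mean of 100 CPM or more, where 24.3% of the contigs considered had. At 20 to under 50 CPM there were 43 members, where 53.9% of the contigs considered lay. Of the 100 chosen under TMM, 18 had a mean of 100 CPM or more and 60 lay at 20 to under 50 CPM. By level per length, the members had a median of 17.7 RPKM and the contigs considered a median of 16.2 RPKM.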

How the data were processed

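RNA sequencing libraries of 10 times, 1 each, were analysed. Per the file headers, the authors deposited reads and RPKM for each contig; which assembler, aligner and counter made them is not given in the sources used here. The deposited reads were treated with the unit expected counts: they are whole except for 0.5, which stands only where RPKM is 0 and was read as 0, so nothing needed rounding. The RPKM deposited by the authors served to derive contig lengths, which came out whole to within a relative 5.6e-08. In the 30 d file 166 contigs could not be read and were left out of the choice. With 1 library a time, only counting error could be given.

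Total-count CPM used the sum of each file's reads. TMM factors (edgeR 4.0.16, R 4.3.3) came from the 52894 contigs kept by filterByExpr with log2(hours + 1) as design, and size factors from DESeq2 1.42.0. SDs use n - 1, and ratios had 0.5 reads added. Ranking was tested on simulated counts whose library factors were set to the TMM factors of these data. The simulation checked that planted level contigs are found when those factors are used, and not which scaling is apt. The members, the lists and the settings were chosen with earlier results of these data known. Contigs named are the 5 lowest SDs, 2 on each side of the limit, the extremes of mean, length and range, the 3 lowest SDs under TMM among the contigs of both sets, and the 2 steadiest under TMM; the 6 drawn as lines are from these. No test between times was run, since each has 1 library and the rule used them all. The alternatives tried were other scalings, added CPM, measures of steadiness, abundance limits, numbers of members and leaving out each library.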

Additional observations from a re-analysis of the deposited data

Results flagged for a closer look

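Some data lay outside the choice. The damaged stretch of the 30 d file took out 166 contigs. The 30 d total lacks their reads, which the other totals include, and the effect on 30 d CPM was not measured. Of the 166 contigs, 7 had a mean from 20 to under 1000 CPM over the other 9 libraries. None of the 7 was as steady over those 9 libraries as the hundredth contig of the rule applied to the same 9: the lowest SD among them was 0.60, against a limit of 0.36. Each time had 1 library, so there is no group within which a library stands apart.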

How the results depend on the processing

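No paired analysis was possible because each time had 1 library and the labels give no replicate numbers. A median range was taken as moved when it shifted by over the SD of the ranges over the 100 members (0.15 with total counts, 0.37 under TMM), and a count when it passed 1.5 times. Of the 100 members, 3 were chosen again under TMM (also with the abundance limits set on TMM CPM), 3 under DESeq2 size factors, 4 under upper quartile scaling, 30 with totals without the dominant contigs, 59 with means from 10 CPM, 57 with means from 50 CPM, 0 without abundance limits, 50 with 50 members, and 60 to 84 with a library left out (60 without 14 d, 65 without 24 h). The sets chosen under those scalings had median ranges with total counts of 1.46, 1.46, 1.43 and 1.20, and 0.0693 without limits; under TMM these were 0.636 (0.638 with the limits on TMM CPM), 0.639, 0.644, 0.799 and 0.108. The 73 members 2-fold from 0 h under TMM became 0, 0, 0 and 13 in these sets, 0 without limits, 34 of 50, 135 of 200, and 46 with TMM factors from all contigs. The 27 contigs with an SD under 0.3 with total counts were 46 with 5 CPM added, 43 from 10 CPM, 12 from 50 CPM, 164993 without limits, and 27 to 45 over left-out libraries (44 without 24 h, 43 without 6 h, 42 without 2 h, 41 without 7 d, 45 without 14 d); the 296 under TMM were 528, 127 and 170794 with the changed limits. In each of these settings the count under TMM was the larger. What caused the differences between settings was not tested. The settings with factors from outside the abundance limits, with limits on TMM CPM and the finer powers were added after seeing the data.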

Other observations

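Scaling to totals without the 141 dominant contigs shared 30 of its 100 steadiest contigs with the members and 44 with those chosen under TMM. Under this scaling 42 of the members had an SD under 0.3, against 27 with total counts and 10 under TMM, and the steadiest contig had an SD of 0.10, the lowest of the 7 scalings tried. TMM factors from all contigs shared 17 of their 100 with the members and 64 with those chosen under TMM.

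The members lay unevenly over the contig numbers of the assembly: 65 of the 100 had a number in the lower part when the contigs considered were divided at their median number. What the numbering stands for is not given in the sources used here.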
